A study of Mus musculus with 81 samples.

Results

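A set of 10 Notch pathway genes was described in single cells of the embryonic mouse pancreas: the receptors Notch1, Notch2 and Notch3, the ligands Jag1 and Dll1, the receptor-modifying enzyme Mfng, the transcriptional targets Hes1, Hey1 and Heyl, and the related factor Hes6. They were taken by gene symbol, 10 of 22869 symbols in the table, and each had 1 transcript row. All 10 were above 0 in at least 3 of the 81 cells. Wild-type CD1 embryos at embryonic day 13.5 gave the pancreata, which were dissociated with trypsin before the cells were captured singly on a microfluidic device. There is 1 group, with no other genotype or treatment, and since no animal is named in the labels, all 81 cells count as 1 sample. No p-value was computed, every SD is a spread over cells, and the comparisons are descriptions. Values were taken as RPKM, a read count divided by transcript length and library size, though the deposited header names no unit. On that reading, levels of different genes can be set side by side. The cell C91, which held Neurog3 at 258.0 RPKM, was set apart from the other 80 cells in the main comparisons.

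Notch receptors are cut when a Delta or Jagged ligand on a neighbouring cell binds them, and the released intracellular part joins the DNA-binding protein Rbpj to switch on Hes and Hey genes. In the developing pancreas, Hes1 is known to hold progenitors back from endocrine differentiation by repressing Neurog3, the factor that starts the endocrine programme. Neurog3-expressing cells in turn are known to present Delta ligands to their neighbours, a process called lateral inhibition.

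The estimated reads per cell had a median of 3.51M and a highest value of 5.40M, and 77 cells had at least 1.66M. The other 4 cells were shallow, at 19.7K estimated reads in C3, 72.5K in C61, 196.8K in C94 and 415.6K in C43. A 1-kb transcript with 1 read has a value of 50.8 RPKM in C3, 13.8 in C61, 5.08 in C94 and 2.41 in C43, so a value of 0 in them limits little. All 81 libraries had distinct index pairs, built from 12 first and 8 second indexes. Cells were clustered without the 10 genes and named from marker lists. There were 68 mesenchymal-like cells, 5 epithelial-like cells (C29, C43, C47, C82 and C95), 2 endocrine-like cells (C24 and C56), 4 leukocyte-like cells (C2, C31, C36 and C54) and the unnamed shallow cell C3. C91 fell in the mesenchymal-like cluster, although it had Epcam, an epithelial adhesion gene, at 27.6 RPKM and Cldn6, a tight junction gene, at 167.1 RPKM. The series title speaks of pancreatic progenitors, whereas most of these cells fell in mesenchymal-like clusters. Of 20 mesenchyme markers, mesenchymal-like cells had 2 to 11 at 10 RPKM, with a median of 7. Epithelial-like cells had 3 to 8, endocrine-like cells 4 to 5 and C91 had 6, so these markers alone do not separate the classes. C13 was placed among the mesenchymal-like cells against some of its own values, with Epcam at 51.6 RPKM, Col3a1, a fibrillar collagen, at 0.367 RPKM and Dcn, a matrix proteoglycan, at 0.19 RPKM. It had 2 of 12 epithelial and 4 of 20 mesenchyme markers at 10 RPKM.

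Promoter sequence is shown for Hes6 and Dll4, the member and the pathway ligand that stood highest above the other cells in C91. Neurog3 belongs to the basic helix-loop-helix factors, which bind E boxes. Each window is the 250 bases before an annotated start in the RefSeq promoter table (GRCm38.p6), written 5′ to 3′ on the gene's strand, and capitals mark CANNTG, an E box that reads the same on both strands.
Hes6, chr1:91414039-91414288, minus strand: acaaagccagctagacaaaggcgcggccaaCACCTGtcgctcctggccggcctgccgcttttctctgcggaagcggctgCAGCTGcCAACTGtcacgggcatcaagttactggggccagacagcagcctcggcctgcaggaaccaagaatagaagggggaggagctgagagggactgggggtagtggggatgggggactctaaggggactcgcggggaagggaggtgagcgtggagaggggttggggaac
Hes6, chr1:91413223-91413472, minus strand: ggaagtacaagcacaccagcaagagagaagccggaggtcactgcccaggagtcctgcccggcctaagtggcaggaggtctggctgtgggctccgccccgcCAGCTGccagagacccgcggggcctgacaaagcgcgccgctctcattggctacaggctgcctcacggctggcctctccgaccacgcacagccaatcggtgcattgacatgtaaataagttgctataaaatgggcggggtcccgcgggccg
Dll4, chr2:119325534-119325783, plus strand: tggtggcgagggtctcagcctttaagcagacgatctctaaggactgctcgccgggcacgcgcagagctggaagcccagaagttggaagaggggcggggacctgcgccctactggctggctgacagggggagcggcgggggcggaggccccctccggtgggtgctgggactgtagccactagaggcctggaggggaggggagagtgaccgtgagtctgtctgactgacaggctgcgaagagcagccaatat
The first Hes6 window held 3 matches, the second held 1 and the Dll4 window held 0. Of the 2 Dll1 windows in the table, one held 3 matches and the other 1. Of all 32851 windows of this length, 66.2% held at least 1 match and 12.2% at least 3. GTGGGAA, a sequence bound by Rbpj, was searched on both strands and had 0 matches in the windows of the 6 members in the table (Dll1, Hes6, Jag1, Notch1, Notch2 and Notch3), against a share of 5.42% of all windows. In so few windows, a count of 0 says little. Hes1, Hey1, Heyl and Mfng had no window there and were not searched, so the targets are not covered. A match is a description of the letters and not of binding.

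Most cells held Notch2, Hes1 and Jag1. Notch2 reached 1 RPKM in 78 of 81 cells (96.3%, 95% interval 89.6 to 99.2), Hes1 in 76 (93.8%, 86.2 to 98.0) and Jag1 in 71 (87.7%, 78.5 to 93.9). At this level the other 7 were in a minority of cells or in none. Counted at any value above 0, Notch1 was in 48 cells (59.3%) and Notch3 in 34, and at 3 or more estimated reads Notch1 was in 37 (45.7%). Intervals are exact Clopper-Pearson intervals over cells and cover counting error only. They treat the cells of 1 sample as independent and cover no variation between animals, captures or plate positions. Apart from this, the reads carry no molecular identifiers and may be copies of 1 molecule. Of all 13237 genes above 0 in at least 3 cells, 22.6% reached 1 RPKM in at least 41 cells, against these 3 of the 10 members.

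**Figure D1:**
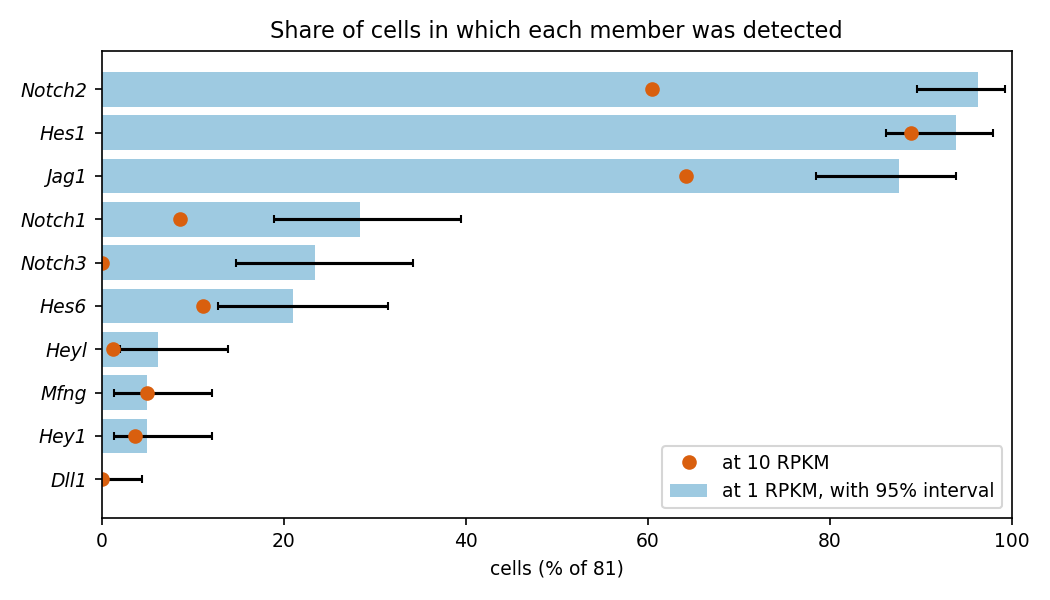
Share of the 81 cells (horizontal axis, percent) in which each member (vertical axis) reached 1 RPKM, as bars with exact 95% intervals, and 10 RPKM, as points. Notch2, Hes1 and Jag1 lie above 87%, and the other 7 members below 29%.

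Among the receptors, Notch2 had the highest level in 70 of 81 cells. In the deposited mm9 coordinates, Notch2 lies at chr3:97817461-97954290 on the plus strand, Notch1 at chr2:26313422-26359342 and Notch3 at chr17:32257838-32303797, both on the minus strand. The Notch2 level was above 0 in all 81, with a lowest value of 0.225 RPKM in C22, a median of 11.6 RPKM and a highest value of 44.05 RPKM in C12. The mean was 14.4 ± 10.97 RPKM (SD, n = 81 cells). Notch1 was at 1 RPKM in 23 cells (28.4%, interval 18.9 to 39.5), with a median of 0.0331 RPKM and a highest value of 25.7 RPKM in C86. Notch1 was under 1 RPKM in 58 cells, between 1 and 10 RPKM in 16 and at 10 RPKM or above in 7, which were C18, C31, C40, C43, C45, C47 and C86. Notch1 was the highest of the 3 receptors in 7 cells: C8, C22, C40, C45, C47, C82 and C86. Notch3, the receptor known from vascular smooth muscle and pericytes, was at 1 RPKM in 19 cells (23.5%, 14.8 to 34.2) and reached 10 RPKM in none, with a highest value of 9.51 RPKM in C70. It was the highest receptor in C14, C24, C39 and C70. A lone receptor was at 1 RPKM in 43 cells, 2 in 34 cells and all 3 in 3 cells. Of the 50-base windows of the Notch1 transcript, 13.7% also occur in transcripts of other genes, as do 3.86% for Notch2 and 5.01% for Notch3. The genes sharing Notch1 windows, 0610009E02Rik and Gm13568, have no row in the deposited values. What the shared sequence did to the counts was not tested.

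Of the ligands, Jag1 (chr2:136907187-136942256, minus strand, mm9) was common and Dll1 (chr17:15504318-15512787, minus strand) was near 0. Jag1 ranged from 0 to 146.3 RPKM in C59, with a median of 15.4 RPKM and a mean of 25.9 ± 29.9 RPKM (SD, n = 81 cells). It was under 1 RPKM in 10 cells: C13, C24, C31, C37, C45, C47, C52, C54, C56 and C94. Dll1, the Delta ligand used by endocrine progenitors, reached 1 RPKM in 0 of 81 cells, where the limit of 3 counts that goes with a count of 0 allows a share of up to 3.70% and the exact upper bound is 4.45%. The 4 shallow cells are among the 81. It was above 0 in 4 cells, at 0.393 RPKM in C67, 0.375 in C47, 0.272 in C91 and 0.154 in C22. These values rest on an estimated 4.16, 6.26, 3.09 and 2.10 reads. Of the 50-base windows of Dll1, 15.01% occur in another gene, A930024N18Rik, which has no row in the deposited values.

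Mfng (chr15:78586313-78603875, minus strand, mm9), an enzyme that adds sugar to Notch receptors and shifts their response to ligands, was at 1 RPKM in 4 cells (4.94%, interval 1.36 to 12.2). These were the leukocyte-like C31 at 144.8 RPKM, C22 at 43.7 RPKM, the epithelial-like C82 at 19.4 RPKM and C72 at 10.7 RPKM. C22 and C72 lay in the mesenchymal-like cluster but carried 7 and 10 of 14 endothelial markers at 10 RPKM. Mfng was thus in at most 1 cell of any named epithelial or leukocyte class, and 65.9% of its summed level over the 81 cells came from C31.

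The targets differed in how many cells held them. They lie at chr16:30065443-30067882 (Hes1, plus strand), chr3:8663359-8667038 (Hey1, minus strand) and chr4:122910799-122927113 (Heyl, plus strand) in mm9. Hes1 ranged from 0 to 305.3 RPKM in C83, with a median of 69.8 RPKM and a mean of 84.8 ± 70.7 RPKM (SD, n = 81 cells), the highest mean of the 10 members. Only 5 cells were under 1 RPKM for Hes1: C3, C11, C13, C37 and C95. Hey1, a target known from vascular endothelium, was at 1 RPKM in 4 cells: C59 at 159.8 RPKM, C41 at 24.7, C34 at 13.8 and C56 at 5.26. Heyl was at 1 RPKM in 5 cells (6.17%, interval 2.03 to 13.8), with C67 at 110.1 RPKM and C46 next at 7.10 RPKM. A lone cell held most of the summed level of each, 77.7% for Hey1 and 88.3% for Heyl. The highest Hey1 cell, C59, was also the highest Jag1 cell, and the highest Heyl cell, C67, was second for Hes1 at 296.8 RPKM.

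Hes6 (chr1:93308060-93309799, minus strand, mm9), which in other settings antagonises Hes1 and accompanies proneural factors, was at 1 RPKM in 17 cells (20.99%, interval 12.7 to 31.5) and at 10 RPKM in 9. Its highest levels were 165.5 RPKM in C76 and 150.7 RPKM in C60, both mesenchymal-like. The next were C47 at 79.2 RPKM, C80 at 65.5, C61 at 51.5 and C91 at 36.6. The value in the shallow C61 rests on an estimated 4.98 reads. C60 shares an index with C76. Among the 15 cells sharing an index with C76, Hes6 was at 1 RPKM in 4, and among the 65 sharing none it was in 12. For Heyl the counts at 1 RPKM were 0 of 16 cells sharing an index with its highest cell and 4 of 64 sharing none. The part of index exchange in these values was not tested.

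**Figure D2:**
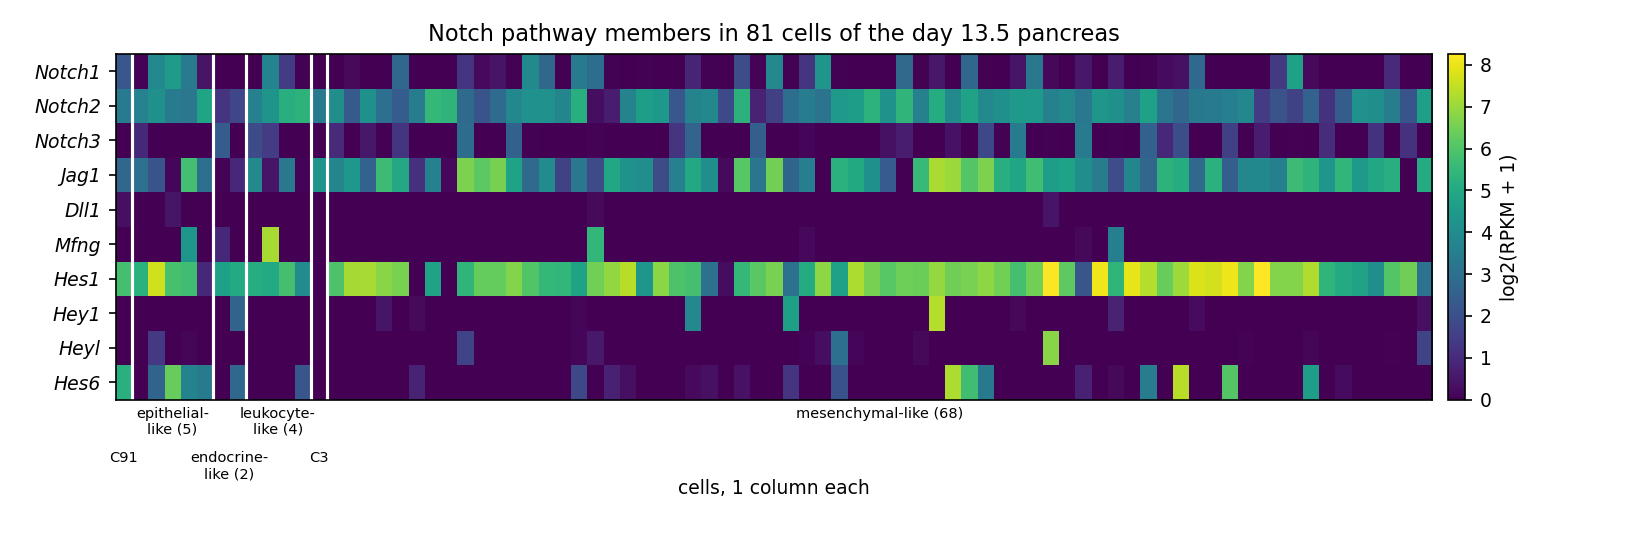
Level of each member (rows) in each of the 81 cells (columns, grouped by class with C91 first), as log2(RPKM + 1) in color. Notch2, Jag1 and Hes1 are filled across nearly all columns, whereas Hey1, Heyl and Mfng are bright in a few cells and Dll1 in none.

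Receptor, ligand and target were detected together in most cells, as their high single shares nearly fix. Notch2, Jag1 and Hes1 were together at 1 RPKM in 65 of 81 cells (80.2%, interval 69.9 to 88.3), and the product of the 3 single shares is 79.2%. With single shares this high, the count had little room to differ from the product. Their closeness therefore says little about whether the genes go together. A receptor and a ligand were together in 70 cells, a receptor and a target in 75, and all 3 kinds in 67. No ligand was at 1 RPKM in 10 cells, no target in 5 and no receptor in 1. Each pair was common too, as 68 of the 71 Jag1 cells and 73 of the 78 Notch2 cells also had Hes1. All 23 Notch1 cells and all 19 Notch3 cells had Hes1. With Hes1 in 93.8% of the 81 cells, these pair counts say little about whether the genes go together. Notch1 and Notch3 were together in 3 cells, where the product of their shares gives 5.40. All of Notch2, Jag1 and Hes1 were together in 3 of the 7 epithelial-like and endocrine-like cells and in 59 of the 68 mesenchymal-like cells. Levels of these genes were only weakly related across cells: Spearman's rho was 0.20 for Jag1 and Hes1 and -0.15 for Notch2 and Hes1, over 81 cells of 1 sample that differ in depth. With the estimated reads, rho was 0.22 for Notch1, -0.11 for Notch2, 0.12 for Jag1 and -0.22 for Hes1.

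**Figure D3:**
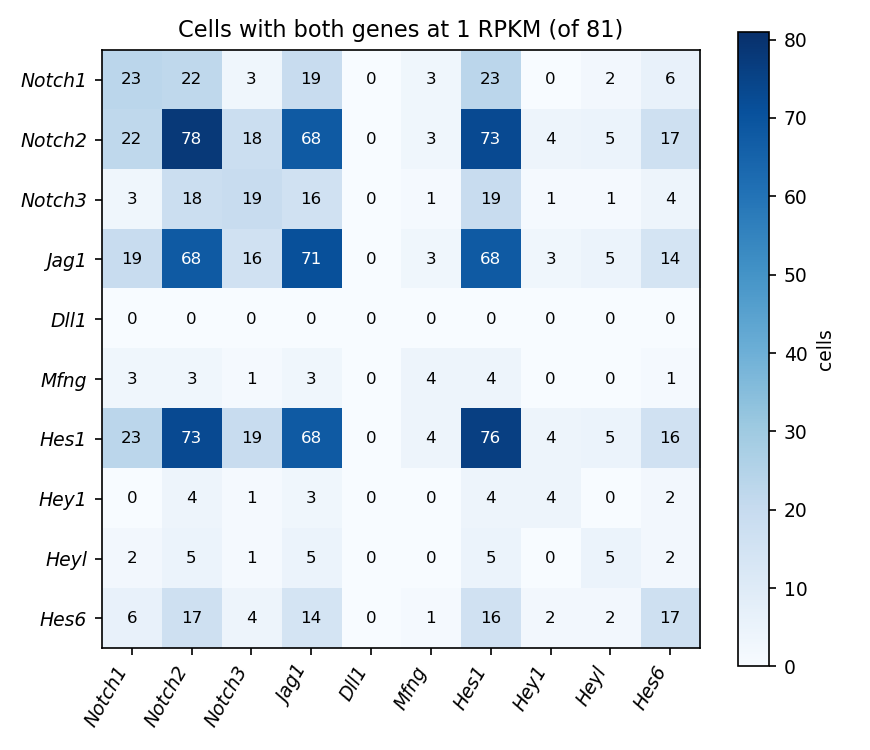
Number of the 81 cells in which the member of a row and the member of a column both reached 1 RPKM, with each member's own count on the diagonal. The block of Notch2, Jag1 and Hes1 holds counts of 68 to 78, and the row of Dll1 holds 0.

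Set against mesenchymal-like cells, the epithelial-like and endocrine-like cells averaged more Hes6 and less Jag1, with wide overlap. Hes6 was 5.33, 79.2, 12.0001, 9.87 and 0 RPKM in the epithelial-like C43, C47, C82, C95 and C29, and 0 and 5.97 RPKM in the endocrine-like C24 and C56. In the 68 mesenchymal-like cells it ran from 0 to 165.5 RPKM with a median of 0, so the groups overlapped. Among the 32 of these 68 cells numbered 1 to 48, the highest Hes6 level was 3.26 RPKM. On the log2(RPKM + 1) scale, which understates the change of low genes, Hes6 averaged 2.70 ± 2.21 in the 7 cells and 0.69 ± 1.73 in the 68 (SD over cells), a difference of 2.01. Jag1 was 3.46, 0.0784, 54.8, 7.11 and 7.50 RPKM in C43, C47, C82, C95 and C29, and 0.0522 and 0.880 RPKM in C24 and C56, against a median of 18.6 RPKM and a range of 0 to 146.3 in the mesenchymal-like cells. Its mean log2 level was 2.17 ± 2.04 in the 7 cells and 4.08 ± 1.77 in the 68, a difference of -1.92. The overlap was again wide, as C82 stood above the mesenchymal-like median. Of the 10 members, 1 was at least 1 log2 unit higher and 1 lower on the epithelial side, beside 15.7% higher and 3.91% lower among 6598 genes held out of the clustering. The median difference was 0.03 for the members and 0.10 for those genes.

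The other members differed by less than 1 log2 unit between the classes. Notch1 was 13.8, 22.9, 9.31, 0.346 and 0.0536 RPKM in C43, C47, C82, C95 and C29 and 0 in C24 and C56, and reached 1 RPKM in 17 of 68 mesenchymal-like cells. Its mean log2 difference was 0.99, close to the threshold of 1, and was 1.69 with epithelial-like cells alone, 1.27 without C29 and 0.65 without the shallow cells. Hes1 was 203.4, 56.6, 51.6, 0.914 and 37.5 RPKM in C43, C47, C82, C95 and C29 and 25.3 and 32.3 RPKM in C24 and C56, beside a mesenchymal-like median of 85.0 RPKM. Its difference was -0.87, -0.96 without C13, and -1.30 without the shallow cells, C43 among them. Notch2 was 1.37 and 2.42 RPKM in the endocrine-like C24 and C56 and 16.8, 9.91, 8.68, 27.3 and 11.6 RPKM in C43, C47, C82, C95 and C29, against a mesenchymal-like median of 11.97 RPKM. In the leukocyte-like C2, C31, C36 and C54 it was 11.1, 18.6, 34.8 and 39.7 RPKM. C29 had only 3 of 12 epithelial markers at 10 RPKM and 8 of 20 mesenchyme markers. When all genes outside the Notch lists shaped the clusters, an alternative chosen after seeing the data, the epithelial side held only C24 and C56, and the differences were 0.55 for Hes6, -0.88 for Notch1, -3.51 for Jag1 and -2.02 for Notch2. The class differences of Hes6 and Notch1 thus depend on which cells count as epithelial.

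**Figure D4:**
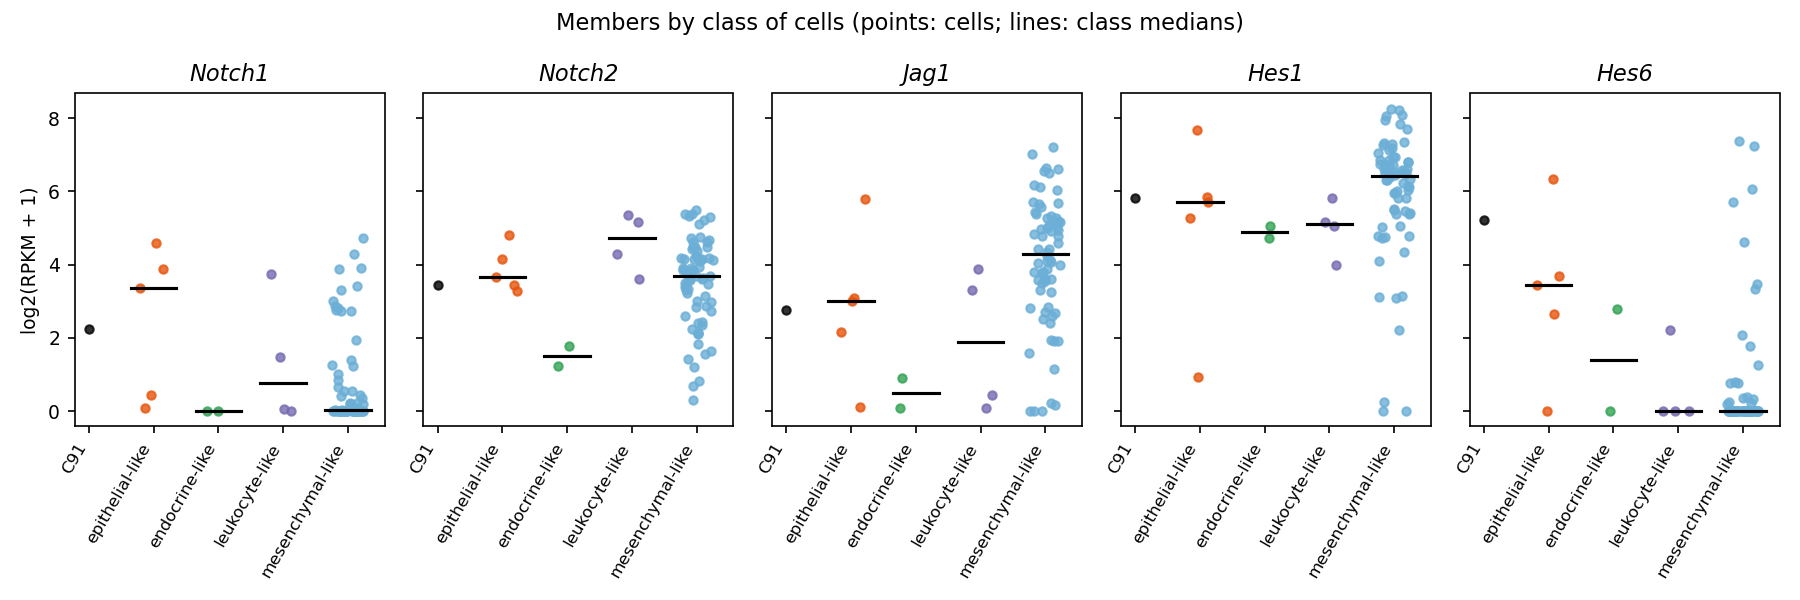
Level of 5 members in C91, the epithelial-like, endocrine-like and leukocyte-like cells and the mesenchymal-like cells (horizontal axis), as log2(RPKM + 1). Points are cells and lines are class medians. Hes6 points of the epithelial-like cells lie mostly above the mesenchymal-like median of 0, and their Jag1 median lies below the mesenchymal-like one.

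Values in the few cells of other types varied from cell to cell. In the leukocyte-like C2, C31, C36 and C54, Hes1 was 34.7, 32.04, 55.2 and 14.8 RPKM, all below the mesenchymal-like median of 85.0. Jag1 was 13.7, 0.369, 8.87 and 0.0628 RPKM and Notch1 0, 12.4, 1.79 and 0.0363 RPKM in the same cells. Col3a1 was 57.7, 2.90, 141.8 and 21.9 RPKM in them, highest in C36 and C2, where Jag1 was also higher. Their cluster reached 5 of 20 mesenchyme markers. Whether mesenchymal RNA was captured with these cells was not tested. Mfng was listed at 0 in the leukocyte-like cells other than C31. Of the cells with endothelial markers, C22 had Notch1 at 6.98 RPKM, Notch2 at 0.225 and Dll4 at 13.2, and C72 had Notch2 at 16.7 RPKM, Notch1 at 0.565, Notch4, a receptor known from endothelium, at 6.28 and Nrarp, a feedback inhibitor of Notch, at 10.3. Both had Hes1, at 88.9 RPKM in C22 and 40.9 RPKM in C72. C45, with 6 of 8 neural crest and glia markers at 10 RPKM, had Notch1 at 18.6 RPKM, above its Notch2 at 7.82, Hes1 at 115.8 and Jag1 at 0. Each of these is a lone cell or a few, and the values are descriptions of those cells.

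In C91, the Neurog3 cell, Hes6 stood high, while Notch2 and Hes1 ranked near the middle of the cells and Jag1 lower. C91 carried 10 of 15 endocrine progenitor markers at 10 RPKM, among them Rfx6 at 173.8 RPKM and Nkx2-2 at 68.6 RPKM, together with 6 of 12 epithelial, 5 of 26 endocrine, 6 of 20 mesenchyme, 2 of 6 mesothelial, 0 of 14 leukocyte and 0 of 14 endothelial markers. Hes6 was 36.6 RPKM in C91, resting on an estimated 155 reads and ranking 6 of 81, and was 4.38 log2 units above the mean of the other 80 cells and 2.53 above that of the epithelial-like and endocrine-like cells. It was the only member at least 2 units above, beside 13.8% of 13237 genes at least 2 above and 6.86% at least 2 below. Hes1 was 55.1 RPKM in C91, rank 51, Notch2 9.79 RPKM, rank 51, Jag1 5.77 RPKM, rank 60, and Notch1 3.70 RPKM, rank 17. Notch3, Hey1, Heyl and Mfng were listed at 0 there. No member was highest in C91, beside 1.84% of all genes. With 1 cell there is no replicate check.

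Among 47 other Notch pathway genes, Dll4 set C91 apart. This Delta ligand was 201.9 RPKM in C91, against 13.99 RPKM in C8, 13.2 in C22 and 2.06 in C43, the only other cells at 1 RPKM. Rbpj, the DNA-binding partner of the receptors, was 71.7 RPKM in C91, against 53.3 in C32 and 51.03 in C61 as the next highest. Numbl, a relative of the Notch inhibitor Numb, was 30.8 RPKM in C91, against 20.7 in C63. These were the 3 of 40 pathway genes tested that were highest in C91 (7.5%, beside 1.84% of all genes). Poglut1, which adds glucose to the receptors, and Adam10, which makes the first cut after ligand binding, were 44.3 and 46.9 RPKM, and the atypical ligand Dlk1 was 16.9 RPKM. Of the 40, 5 were at least 2 log2 units above the other cells (Dll4 7.54, Rbpj 5.02, Numbl 3.77, Poglut1 3.02 and Adam10 2.03) and Aes, a corepressor relative, was at -2.11. These shares, 12.5% above and 2.5% below, stand beside 13.8% and 6.86% of all genes, so the count above is near the background. Of the 50-base windows of Rbpj, 24.2% occur in its pseudogenes. Those of Dll4 occur at 4.46% in Gm14207, an antisense neighbour at 9.21 RPKM in C91 and in no other cell at 1 RPKM. No use of strand is stated for the counting, so reads of Dll4 and Gm14207 cannot be told apart where they overlap.

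**Figure D5:**
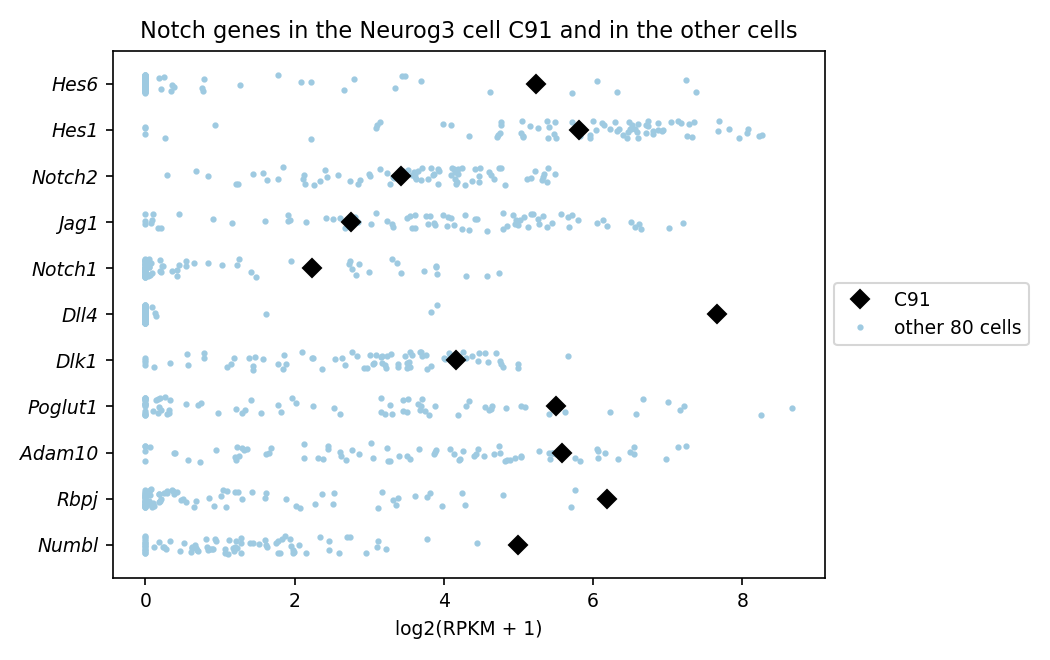
Level of 5 members and 6 other pathway genes in C91 (diamonds) and in the other 80 cells (points), as log2(RPKM + 1). Dll4, Rbpj and Numbl in C91 lie above every other cell, whereas Hes1, Notch2 and Jag1 lie within the cloud.

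The wider pathway ranged from genes listed at 0 to genes in most cells. Of the 47 genes, Jag2, Hes2, Hes3 and Hes5 were listed at 0 in every cell, and Lfng and Dtx1 stayed under 1 RPKM. In at least 41 cells, 6 of 47 (12.8%) reached 1 RPKM, beside 2985 of all 22869 genes, neither count being filtered for genes above 0. The 6 were Dlk1 and Adam10 in 71 each, Poglut1 in 49, Aes in 47, Psenen, a gamma-secretase subunit, in 45 and Numbl in 44. A further 14 were at 1 RPKM in 1 to 10 cells and 21 in 11 to 40, with Rbpj in 32. Of the 40 tested, 5 were at least 1 log2 unit higher in the 7 epithelial-like and endocrine-like cells, with Psen2, a gamma-secretase catalytic subunit, at 2.53, Psenen at 1.72, Aes at 1.65 and the Groucho-type corepressors Tle2 and Tle4 at 1.21 and 1.20. Another 4 were lower, with Adam10 at -1.54, Poglut1 at -1.47, Dtx3 at -1.07 and Pofut1, which adds fucose to the receptors, at -1.02. These shares, 12.5% higher and 10% lower, stand beside 15.7% and 3.91% of the held-out genes. The list's median was -0.09, beside 0.10 for the held-out genes.

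Genes whose levels ran most alike were sought for the 4 members at 1 RPKM in at least 20 cells, over 6290 genes and 81 cells. Hes1 was most like Junb (Spearman's rho 0.49), Midn (0.43) and Cyr61 (0.43), and Junb and Cyr61 are immediate early genes. Junb had a median of 0.705 RPKM and was at 1 RPKM in 36 cells, so many of its ranks lie near 0. Midn and Cyr61 had medians of 9.51 and 221.2 RPKM. Jag1 was most like Sema5a (0.47), Nfatc4 (0.43) and Pdp2 (0.41), with medians of 15.4, 0.0752 and 3.47 RPKM. Among the genes most like Notch1 were Zbtb17 and Cxx1a (0.40 each), and Notch2 was most like Zfp825 (0.37), Ubxn1 (0.36) and Narg2 (0.36). The points are cells of 1 sample and differ in depth, and the rho values are descriptions. Each gene named was picked as among the highest of 6290, and no chance level for such a pick was computed.

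Levels differed with the cell number in the labels. Hes1 had a median of 88.1 RPKM in the 41 cells numbered 49 to 96, against 55.4 RPKM in the 40 cells numbered 1 to 48. Within mesenchymal-like cells the median was 91.9 RPKM in the 36 cells of the higher numbers and 61.2 RPKM in the 32 of the lower. For Jag1 there was a median of 22.95 RPKM in the cells numbered 49 to 96, against 11.2 RPKM in those numbered 1 to 48. Of the 10 members, 3 (Jag1, Hes1 and Hes6) averaged at least 0.5 log2 units higher in the cells numbered 49 to 96, beside 5.29% of all genes, and 0 were lower, beside 14.3%. Their differences were 0.73, 0.93 and 0.95, under the 1 log2 unit used between classes. Hes6 had a median of 0 in both sets, but its high values fell unevenly. Within mesenchymal-like cells its highest level was 165.5 RPKM in the 36 numbered 49 to 96 and 3.26 RPKM in the 32 numbered 1 to 48. It was at 1 RPKM in 7 and 3 of them. The split by cell number and its 0.5 cutoff were not among the planned comparisons. Hes1 reached 200 RPKM in 8 cells, of which 7 were among the 16 cells numbered 67 to 84, a range chosen after the values were seen. By the well names in the deposited column headers, cells numbered 49 to 96 lie in plate columns 4 to 6 and 10 to 12, and cells numbered 1 to 48 in columns 1 to 3 and 7 to 9. The cell number, the plate columns and the first index (6 in each set, 0 shared) therefore cannot be told apart. Their part in the Hes1, Jag1 and Hes6 levels was not tested. Hes1 and Junb had a rho of 0.49 in the cells numbered 49 to 96 and 0.54 in those numbered 1 to 48. Cyr61 had 0.46 in the cells numbered 49 to 96 and 0.49 in those numbered 1 to 48, whereas Midn had 0.26 in the cells numbered 49 to 96 and 0.52 in those numbered 1 to 48. Junb, Cyr61 and Midn were picked by their rho over all these cells together, so rho within each set is no separate check.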

How the data were processed

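Single-cell cDNA was made with SMARTer chemistry and libraries with Nextera XT, per the labels' protocols, and each library was read in 2 lanes. CASAVA 1.8.2 and build mm9 appear in the submitters' processing notes. For the aligner and counting tool, nothing is given in the sources used here. The authors deposited 1 value per transcript and cell for 29510 rows, taken as RPKM because multiplying by transcript length gave steps of 1 read (a median of 79.7% of low values within 0.15 of a whole read). The header names no unit. Reads per cell were estimated from that step with the library scaling of RPKM taken as given, which the step itself does not show. Lengths and shared windows came from GENCODE vM21.

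Detection means 1 RPKM. Differences are of log2(RPKM + 1), over genes above 0 in at least 3 cells. Cells were clustered (Ward, 10 clusters, 10 principal components, 1000 genes of high variance) with the members, the Notch pathway list and 50% of the other genes outside the marker lists held out. A cluster was named from at least 3 markers at 10 RPKM in 50% of its cells. C91 was set apart from its cluster in the main class comparison, and some alternatives counted it in a class. Doublets were not called in so few cells.

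Genes named are the members; pathway genes in the most cells, with the largest class differences, or at 10 RPKM in C91; the 3 genes most alike per member, of which 1 is not reported here; and markers. Other genes, and the cells named with them, were picked with their values in view. The members and lists were chosen with earlier results of these data known. The read estimate, the differences and the likeness ranking were tested on simulated data. Alternatives covered thresholds, pseudocounts, cells, clusters and transcript rows. Python 3.11.15, numpy 2.4.6, pandas 2.3.3 and scipy 1.17.1 were used.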

Additional observations from a re-analysis of the deposited data

Results flagged for a closer look

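A total of 6 values lay far from the other cells of their class by Dixon's criterion (groups of 4 or 5 cells). Its cutoff is made for normally distributed values, which these are not, so no chance level goes with it. With most cells of these classes at 0, a single detected cell meets the criterion. In the epithelial-like cells these were Notch3 at 0.929 RPKM in C29, Dll1 at 0.375 RPKM in C47, Heyl at 1.58 RPKM in C43 and Mfng at 19.4 RPKM in C82. The Heyl value rests on an estimated 2.99 reads in a shallow cell. In the leukocyte-like cells they were Hes6 at 3.64 RPKM in C54 and Mfng at 144.8 RPKM in C31.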

How the results depend on the processing

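No paired analysis was possible because the series has 1 group and the labels give no replicate numbers. The number of members at least 2 log2 units above the other cells in C91 was 1, and became 2 with a pseudocount of 0.1 (Hes6 and Notch1) and 0 with a pseudocount of 10. The number of members at least 1 unit apart between classes was 2, and became 4 with a pseudocount of 0.1, 0 with a pseudocount of 10 and 4 with no filter on the genes clustered. The count of pathway genes apart was 9, and became 14 with a pseudocount of 0.1. Of the cell counts, Notch1 was 23 at 1 RPKM, 48 above 0, 37 at 3 estimated reads and 7 at 10 RPKM, and Notch3 19 at 1 RPKM, 34 above 0 and 0 at 10 RPKM. Above 0, Hes6 was in 26 cells, Heyl in 15 and Hey1 in 11. Cells with Notch2, Jag1 and Hes1 were 65 at 1 RPKM and 29 at 10 RPKM. Of the 12 genes most alike, 6 were still among the first 3 in mesenchymal-like cells only. Beyond the pseudocounts and thresholds, which rescale low values by construction, the cause was not tested. None of the values changed to the opposite direction while called. Clusters from all genes outside the Notch lists, leaving out C29, leaving out C22 and C72, and leaving out C13 were chosen after seeing the data. The depth of C3, C61, C94 and C43 limits what their zeros show.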
